A study of Mus musculus with 23 samples.

Results

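The genes examined here encode the nuclear part of the oxidative phosphorylation system of mitochondria. They were chosen by gene symbol alone: symbols of the Nduf a, b, c, s and v series, Sdh a to d, those starting with Uqcr, Cyc1, the Cox symbols numbered 4 to 8, and those starting with Atp5, with pseudogene symbols left out. The pattern took 81 of the 24063 gene symbols in the tables: 35 of complex I, 4 of complex II, 9 of complex III, 16 of complex IV and 15 of complex V. Ndufa4 was placed with complex IV, to which its protein is now assigned. The other 2 symbols, Atp5s and Atp5sl, encode no subunit of complex V. The pattern does not take Cox4i1, Ndufab1 or Cox7a2l, and the subunits encoded by mitochondrial DNA have no symbol of this kind.

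RNA of sorted CD138+B220- mouse cells, the surface phenotype of plasma cells, was sequenced in 23 libraries. There are 4 VQ lines, VQ-D1 and VQ-D2 as well as VQ-D4 and VQ-D5, which carry Vκ*MYC, Nras LSL Q61R/+ and IgG1-Cre, and the line t-VK12653, whose genotype label gives Vκ*MYC alone. Each line has 4 libraries. They are myeloma cells of 1 donor line each, taken from recipients after transplantation. Their tissues are bone marrow and spleen in VQ-D1 and t-VK12653, spleen and lymph node in VQ-D2, bone marrow and lymph node in VQ-D5, and bone marrow, liver, spleen and lymph node in VQ-D4. Control holds 3 bone marrow libraries of mice with IgG1-Cre alone, so the VQ lines and Control share the Cre. As background, the Vκ*MYC transgene is driven by kappa light chain elements in B lineage cells, and the Nras allele needs Cre to be expressed. Ages are not given in the labels, and replicate libraries of a line can share a recipient, so p-values reflect how libraries of one donor vary, not how donors vary. Lists of 5 values below run over the VQ lines by number, with t-VK12653 last.

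Oxidative phosphorylation passes electrons from NADH (complex I) and succinate (complex II) through ubiquinone, complex III and cytochrome c to oxygen at complex IV. Complexes I, III and IV pump protons across the inner mitochondrial membrane, and complex V, the ATP synthase, uses their return to make ATP. Complex II is the only one of the 5 with all subunits encoded in the nucleus, and it is also an enzyme of the citric acid cycle. Plasma cells and myeloma cells make large amounts of antibody, which costs ATP.

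Libraries held 2685579 to 10047314 counts, and the 81 genes took 0.609% to 0.855% of them in tumour libraries and 0.439% to 0.445% in Control. Levels are CPM, library-scaled counts with TMM factors, and so shares of the counts over the listed symbols, which include 0 mitochondrial transcripts and 1 immunoglobulin segment. In such bulk samples fewer cells of a type and less RNA per cell cannot be told apart. The ribosomal precursor RNA Rn45s took 16.6% to 21.7% of the counts in VQ libraries and 21.2% to 27.3% in t-VK12653, against 16.4% to 17.3% in Control. Without Rn45s the set's share was 0.777% to 1.05% in tumour libraries and 0.531% to 0.532% in Control. The sorted populations also differed in markers. Summed over 10 neutrophil genes, tumour libraries held 3.10 to 1139 CPM and Control libraries 3102 to 8545 CPM. The 6 B cell genes summed to at most 4.91 CPM in tumour libraries and to 297 to 540 CPM in Control, with Blk at 0 in VQ-D1, VQ-D2, VQ-D4 and t-VK12653. The 8 plasma cell genes summed to 4346 to 15415 CPM in tumour libraries and to 34726 to 64604 CPM in Control. For 8 T and NK cell genes the sums were 0.320 to 45.8 CPM in tumour libraries and 45.7 to 67.2 CPM in Control, and for 10 erythroid genes 1.18 to 43.3 CPM and 96.0 to 513 CPM. Monocyte and macrophage genes, 8 in number, summed to 15.7 to 37.6 CPM in VQ-D5 and 67.9 to 329 CPM in VQ-D2, against 458 to 1455 CPM in Control, and reached 1465 CPM in VQ-D4. The part of these cell types in the differences from Control was not tested. The liver library, VQ-D4 replicate 2, held 39.9 CPM of 5 hepatocyte genes, against at most 5.22 CPM in any other line.

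More oxidative phosphorylation genes were higher than lower in every tumour line when each was set against Control. Of the 81 genes, 77 passed the filter on low counts, and a gene was called at an adjusted p under 0.05 (edgeR quasi-likelihood F-test with Benjamini-Hochberg adjustment over all 12867 genes tested). VQ-D1 had 52 of 77 higher (67.5%, against 29.7% of all tested genes) and 5 lower (6.49%, against 29.7%). VQ-D2 had 46 higher (59.7%, against 29.6% of all genes) and 3 lower (3.9%, against 27.8%). VQ-D2 has no bone marrow library and Control no other tissue, so this comparison leans on tissue terms estimated from the other lines. VQ-D4 had the highest count of the 5 lines, 62 higher (80.5%, against 27.5% of all genes) and 2 lower (2.6%, against 26.9%). In VQ-D5 the counts were 50 higher (64.9%, against 31.2%) and 5 lower (6.49%, against 32.5%). In t-VK12653 they were 57 higher (74.0%, against 28.8%) and 6 lower (7.79%, against 28.1%). All of these comparisons share the 3 Control libraries.

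The shift was modest in size. The median log2 fold change of the 77 genes was 0.58, 0.50, 0.89, 0.70 and 0.72 over the 5 lines. Over all tested genes the median lay between −0.04 and 0.02 in the same comparisons. Without the 1 or 2 genes with 0 reads in a group, these medians were 0.57, 0.50, 0.90, 0.71 and 0.74. With RLE scaling 37 to 58 of the 77 genes were higher in the 5 lines, and with library totals alone 48 to 58. RLE scaling shifted all genes by a median of −0.088 to −0.0518 on the log2 scale, and library totals alone by −0.156 to 0.1. The share of all genes higher in these refits is not given, so these counts have no background beside them.

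The same genes often rose in several lines. Called higher in all 5 lines were 35 of the 77 genes (45.5%), against 9.24% of all tested genes. A further 10 were higher in 4 lines, 27 in 1 to 3 lines, and 5 in none. In 36 of the 77 genes (46.8%) each of the 20 tumour libraries lay above each of the 3 Control libraries, against 8.62% of all tested genes. Called higher in one line and lower in another were 8 genes (10.4%), against 17.0% of all genes.

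**Figure D1:**
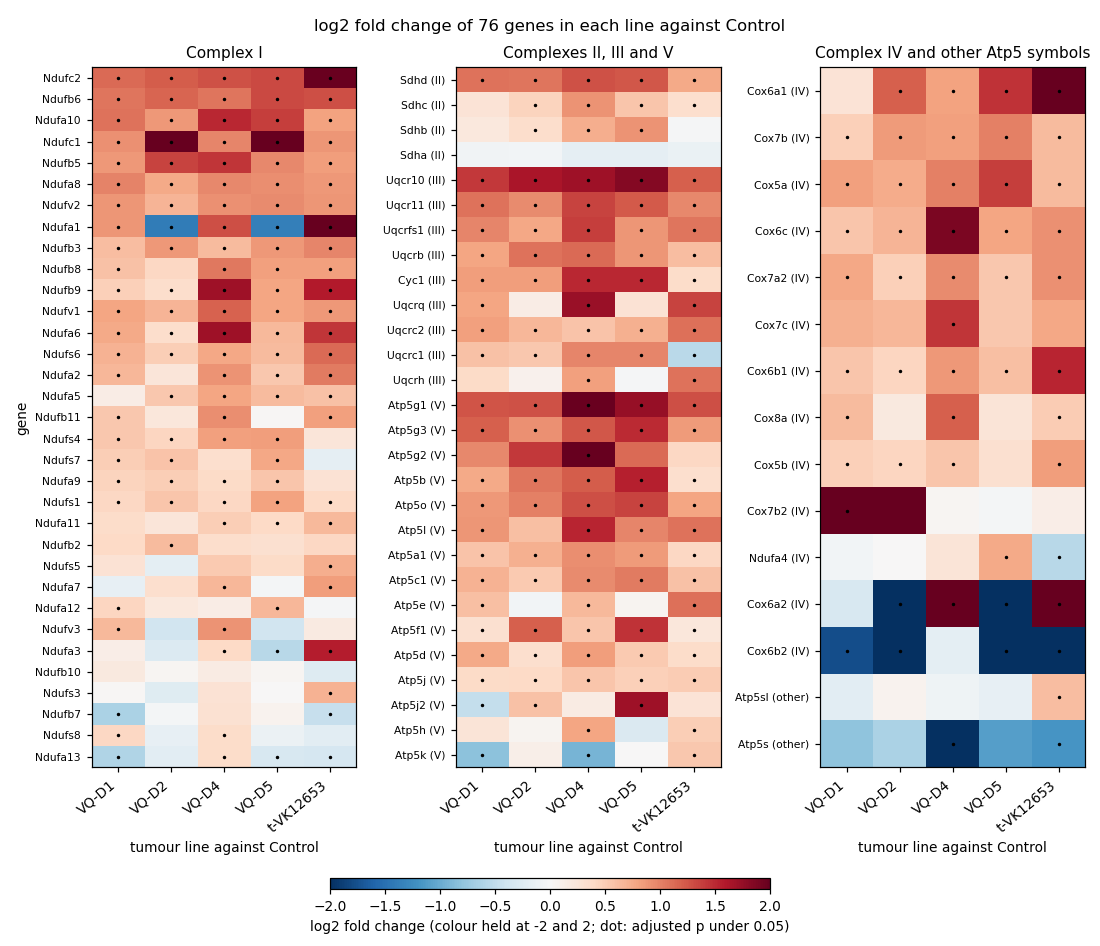
Fold change of 76 of the 77 tested genes (rows, ordered by complex and by median) in the 5 tumour lines (columns), each against Control; colour is the log2 fold change, held at −2 and 2, and a dot marks an adjusted p under 0.05. Most cells of complexes I, III and V are red, Sdha is pale in all 5 lines, and Ndufa1, Cox6a2 and Atp5j2 change sign between lines; the fitted colour of Cox7b2 outside VQ-D1 rests on at most 2 reads a line.

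Summed over its genes, complex III had every tumour library above every Control library. By replicate its summed CPM was 853, 804, 795 and 818 for VQ-D1, 759.7, 739, 701 and 692 for VQ-D2, 1089.5, 929, 1169 and 1141 for VQ-D4, and 773, 840.3, 864 and 847 for VQ-D5. The sum was 797, 843, 896 and 903 for t-VK12653, against 492, 463 and 465 for Control. The line means were 1.53 to 2.29 times the Control mean. Complexes I, IV and V were likewise above Control in every tumour library, at 1.35 to 1.83 times, 1.44 to 2.15 times and 1.44 to 2.29 times the Control mean. In CPM sums complex II moved least: its line means were 1.14, 1.21, 1.22, 1.26 and 1.05 times the Control mean over the 5 lines, and for t-VK12653 the direction turned with other scales (0.904 times in TPM, 0.923 times with library totals alone). Sdha alone made up 233 of the 365 CPM of complex II in Control, and by gene the median log2 fold change of the VQ line sums was 0.72 in complex II, against 0.73 for complex I. In VQ-D4 the liver library was the lowest of its line, with 6586 CPM over all 81 genes, against 8206 to 8694 CPM in the other 3. These sums are given without a test.

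**Figure D2:**
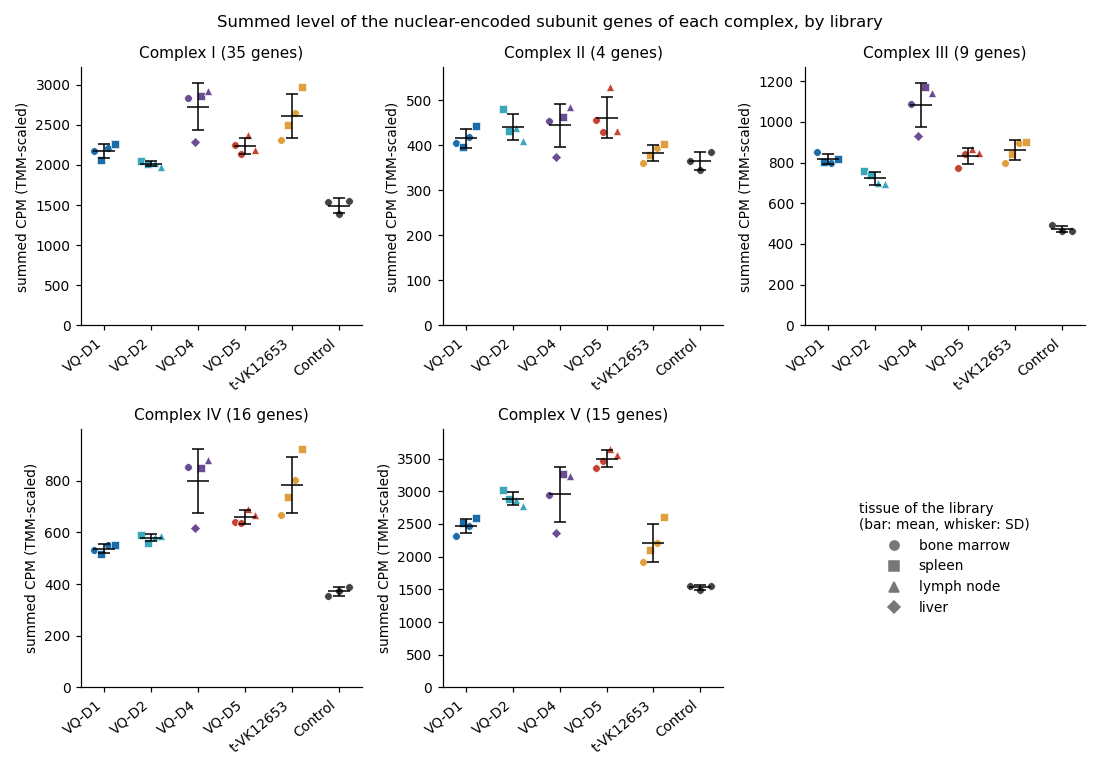
Summed CPM (TMM-scaled) of the genes of complexes I to V in each library (points, shaped by tissue), with the mean and SD of each group (bars). In complexes I, III, IV and V all 20 tumour libraries lie above the 3 Control libraries, while for complex II the libraries of t-VK12653 and the liver library of VQ-D4 overlap with Control, and the liver library of VQ-D4 lies below the other 3 of its line in each panel.

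Complex I, the NADH dehydrogenase, is built of a set of core subunits that carry the redox centres and of many accessory subunits. Of its 34 tested genes, 24, 19, 27, 22 and 24 were higher over the 5 lines, with 2, 1, 0, 3 and 2 lower. Among core genes, Ndufs1, Ndufv1 and Ndufv2 were higher in all 5 lines, Ndufs7 in 3, Ndufs8 in 2 and Ndufs3 in 1. Ndufv2, a core subunit with an iron-sulfur cluster, had log2 fold changes of 0.68 to 0.94 over the 5 lines. Fold changes of the accessory genes ran from −1.40 to 2.42 on the log2 scale and those of the core genes named here from −0.24 to 1.18.

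Ndufc1, an accessory subunit of the membrane arm, had the highest fold change of complex I in VQ-D2 and VQ-D5. Ndufc1 CPM by replicate was 30.1, 27.02, 26.8 and 30.5 for VQ-D1, 63.1, 61.3, 60.9 and 66.01 for VQ-D2, 26.4, 22.1, 35.4 and 26.9 for VQ-D4, and 81.2, 84.5, 77.2 and 69.6 for VQ-D5. Ndufc1 in t-VK12653 was 22.1, 25.6, 33.9 and 30.98 CPM, against 16.2, 13.98 and 14.4 CPM in Control. All 20 tumour libraries lay above Control, and those of VQ-D2 and VQ-D5 lay above all others. The log2 fold change was 2.09 ± 0.18, adjusted p = 2.31e-09 in VQ-D2 and 2.42 ± 0.16, adjusted p = 2.47e-11 in VQ-D5. It was 0.92 in VQ-D1, 0.98 in VQ-D4, and 0.88 in t-VK12653, all called. The difference of VQ-D1 from VQ-D2 was itself called (−1.17 ± 0.13, adjusted p = 1.65e-07).

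Ndufa1, an accessory subunit needed for the assembly of complex I and encoded on the X chromosome, had the largest F statistic of the set among the 4 VQ lines. Ndufa1 CPM by replicate was 76.998, 58.5, 64.7 and 67.9 for VQ-D1, 12.1, 13.9, 17.6 and 18.1 for VQ-D2, 119, 94.2, 77.9 and 86.99 for VQ-D4, and 13.2, 11.5, 20.3 and 18.5 for VQ-D5. Ndufa1 in t-VK12653 was 145, 182, 158 and 168 CPM, against 35.02, 33.8 and 42.8 CPM in Control. VQ-D1, VQ-D4 and t-VK12653 lay above Control in every library, and VQ-D2 and VQ-D5 lay below it in every library. Against Control the log2 fold change was 1.29 ± 0.18, adjusted p = 3.93e-06 in VQ-D4 and −1.40 ± 0.21, adjusted p = 6.48e-06 in VQ-D2. It was 2.17 ± 0.18, adjusted p = 1.25e-09 in t-VK12653. VQ-D2 differed from VQ-D4 by −2.69 ± 0.17, adjusted p = 2.25e-11, while the difference of VQ-D2 from VQ-D5 was −0.02 ± 0.18 (adjusted p = 0.938). Ndufb11 and Cox7b also lie on the X chromosome, and were higher in 3 lines and in all 5. The sex of the animals is not given in the labels.

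Ndufa13, an accessory subunit also known as GRIM-19, was called lower in 3 lines. Ndufa13 CPM by replicate was 63.4, 63.4, 56.8 and 68.6 for VQ-D1, 93.2, 82.1, 81.5 and 73.1 for VQ-D2, 120.3, 121, 120.3 and 124 for VQ-D4, and 73.8, 70.5, 76.5 and 70.2 for VQ-D5. Ndufa13 in t-VK12653 was 66.2, 78.99, 75.99 and 81.98 CPM, against 92.1, 76.1 and 103 CPM in Control. The VQ-D4 libraries were the highest of all, and those of VQ-D1 lay below all 3 of Control. It fell in VQ-D1 (−0.60 ± 0.11, adjusted p = 7.92e-05), VQ-D5 (−0.33 ± 0.11, adjusted p = 0.0149) and t-VK12653 (−0.33 ± 0.11, adjusted p = 0.0140), and rose in VQ-D4 (0.37 ± 0.12, adjusted p = 0.0102). Its exons overlap those of Tssk6 on the other strand, and no source used here gives the strand setting of the counting, so reads of the pair cannot be told apart. In all, 23 of the 81 genes overlap an exon of another coding gene. Ndufb9, among the 3 most abundant of the set by length-scaled level, averaged 938 ± 99.03 TPM in VQ-D4 and 852 ± 64.97 TPM in t-VK12653, against 347 ± 35.8 TPM in Control (SD). Of its 50-base stretches 23.4% also occur in another annotated gene. Ndufb4 did not pass the filter in the fit of all libraries: it held 34, 17, 35, 12 and 8 reads over the 5 lines, against 3 in Control. Of its 50-base stretches 37.0% are shared with 3 other genes.

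Complex II, succinate dehydrogenase, split by subunit. Sdha, the flavoprotein that oxidises succinate, was called in none of the 5 lines. Sdha CPM by replicate was 236, 206, 228 and 235 for VQ-D1, 259, 222, 242 and 206 for VQ-D2, 206, 179.7, 209 and 213 for VQ-D4, and 215, 186, 257 and 179.5 for VQ-D5. Sdha in t-VK12653 was 206, 223, 213 and 224 CPM, against 222, 221 and 257 CPM in Control. The VQ-D4 libraries all lay below the Control range, and the other lines overlapped with it. Its log2 fold changes against Control ran from −0.19 to −0.05, with SE of 0.12 to 0.13, and it was not called among the 4 VQ lines either (adjusted p = 0.511). Sdhd, a membrane anchor that helps to bind ubiquinone, was higher in all 5 lines. Sdhd CPM by replicate was 54.8, 66.2, 61.9 and 74.3 for VQ-D1, 70.6, 66.9, 65.7 and 65.1 for VQ-D2, 74.1, 49.7, 72.99 and 77.4 for VQ-D4, and 60.9, 71.2, 79.8 and 79.3 for VQ-D5. Sdhd in t-VK12653 was 54.2, 45.1, 50.5 and 54.6 CPM, against 32.4, 25.6 and 29.2 CPM in Control. No line overlapped with Control. The log2 fold change was highest in VQ-D4 (1.27 ± 0.14, adjusted p = 8.63e-08) and lowest in t-VK12653 (0.75 ± 0.13, adjusted p = 4.05e-05), with 1.08, 1.07 and 1.24 in the remaining VQ lines, all called. Sdhb, the iron-sulfur subunit, was higher in VQ-D2, VQ-D4 and VQ-D5 by 0.36 to 0.90, and Sdhc, the second anchor, in those lines and in t-VK12653 by 0.34 to 0.90.

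The promoters of 3 of these genes are shown because their subunits join in one enzyme while their RNA differed in response, next to that of Cox6a1, which ranged most widely among the genes called higher in 4 or more lines. Each runs from 250 bases before to 50 after the start in RefSeq (GRCm38.p6): Sdha chr13:74350191-74350490 on the minus strand, Sdhb chr4:140961021-140961320 on the plus strand, Sdhd chr9:50603800-50604099 on the minus strand and Cox6a1 chr5:115348909-115349208 on the minus strand. Capitals mark matches to an NRF1 core (GCGCATGC) or an ETS core (CCGGAAG) on either strand, motifs bound by factors known to act on respiratory chain genes.
Sdha: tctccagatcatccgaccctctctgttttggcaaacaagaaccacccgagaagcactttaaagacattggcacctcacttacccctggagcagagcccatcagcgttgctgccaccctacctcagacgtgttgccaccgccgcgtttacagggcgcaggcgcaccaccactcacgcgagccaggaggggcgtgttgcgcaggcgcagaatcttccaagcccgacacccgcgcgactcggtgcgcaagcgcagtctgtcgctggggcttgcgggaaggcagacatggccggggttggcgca
Sdhb: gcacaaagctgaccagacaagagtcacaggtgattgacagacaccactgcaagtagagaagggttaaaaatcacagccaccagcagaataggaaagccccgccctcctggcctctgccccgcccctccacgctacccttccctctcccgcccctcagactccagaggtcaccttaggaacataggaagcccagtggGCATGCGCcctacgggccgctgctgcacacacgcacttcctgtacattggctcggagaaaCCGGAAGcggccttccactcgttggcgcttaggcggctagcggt
Sdhd: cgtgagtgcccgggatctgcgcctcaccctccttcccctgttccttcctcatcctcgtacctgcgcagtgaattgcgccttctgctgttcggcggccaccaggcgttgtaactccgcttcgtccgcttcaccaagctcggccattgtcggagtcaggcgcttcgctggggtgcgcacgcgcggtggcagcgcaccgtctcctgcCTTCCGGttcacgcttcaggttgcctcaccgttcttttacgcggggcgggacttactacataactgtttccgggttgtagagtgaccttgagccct
Cox6a1: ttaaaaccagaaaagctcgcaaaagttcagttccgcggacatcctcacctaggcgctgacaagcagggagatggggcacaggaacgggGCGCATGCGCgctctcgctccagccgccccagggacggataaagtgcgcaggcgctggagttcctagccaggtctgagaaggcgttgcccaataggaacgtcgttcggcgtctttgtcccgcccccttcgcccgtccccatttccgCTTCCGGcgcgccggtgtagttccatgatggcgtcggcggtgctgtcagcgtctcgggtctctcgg
Sdhb and Cox6a1 hold both motifs, Sdhd holds the ETS core, and Sdha holds neither in this window. A match is a description of the letters only.

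Over the set, 68 genes had an entry in the promoter table, with 74 start sites. The NRF1 core stood in 10 of 74 member promoters (13.5%), against 2.71% of all 32851 promoters, and the ETS core in 16 (21.6%), against 8.86%. A YY1 core (AAGATGGC) stood in 12 (16.2%), against 2.75% of all, and the E-box CACGTG, the letters that MYC binds with its partner MAX, in 9 (12.2%), against 7.15%. Counted by gene, the E-box stood in 7 of 68 members (10.3%), against 8.09% of all genes. All motifs were searched on both strands, a promoter counted once per motif, and none of the 4 strings contains another. Member promoters were also richer in CpG, with a median of 19 per 300 bases and 57.5% GC, against 7 and 52.7% over all promoters, and the part of this composition in the motif shares was not tested. Uqcr10, with the highest fold change of complex III in the line sums, held none of the 4 motifs in its window.

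Complex III, the cytochrome bc1 complex, had the largest share of tested genes called higher in all 5 lines of the 5 complexes. This was 6 of 9 genes, with complex V next at 9 of 15. Complexes I, II and IV had 14 of 34, 1 of 4 and 5 of 13, against 9.24% of all tested genes. These shares rest on few genes and were not compared by a test. Of the 9 genes of complex III, 8, 7, 9, 7 and 8 were higher over the 5 lines, and 6 were higher in all 5 lines. Those 6 were Cyc1 (cytochrome c1), Uqcrfs1 (the Rieske iron-sulfur protein), Uqcrc2 (a core protein) and the small subunits Uqcr10, Uqcr11 and Uqcrb. Of the 50-base stretches of Uqcrb, 43.2% are shared with 4 other genes, so its counts are uncertain. Uqcr10 had the highest fold change of the complex in each VQ line but VQ-D4. Uqcr10 CPM by replicate was 34.3, 31.6, 34.8 and 47.5 for VQ-D1, 46.4, 44.04, 44.2 and 50.7 for VQ-D2, 45.5, 34.05, 46.1 and 47.3 for VQ-D4, and 44.8, 47.3, 57.5 and 54.2 for VQ-D5. Uqcr10 in t-VK12653 was 27.7, 31.6, 31.9 and 36.2 CPM, against 14.9, 12.96 and 11.6 CPM in Control. No tumour library overlapped with Control. Its log2 fold change was highest in VQ-D5 (1.84 ± 0.16, adjusted p = 1.64e-09) and lowest in t-VK12653 (1.19 ± 0.16, adjusted p = 1.79e-06), with 1.42, 1.63 and 1.70 in the other VQ lines, all called.

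Uqcrc1, the other core protein, was the one complex III gene called lower in a line. Uqcrc1 CPM by replicate was 193, 186, 182 and 168 for VQ-D1, 181, 189, 164 and 164 for VQ-D2, 217, 203, 252 and 241 for VQ-D4, and 223, 239, 233 and 222 for VQ-D5. Uqcrc1 in t-VK12653 was 77.2, 81.2, 80.7 and 97.1 CPM, against 114, 116 and 124 CPM in Control. Every VQ library lay above Control and every t-VK12653 library below it. The log2 fold change was 0.97 ± 0.0961, adjusted p = 1.32e-08 in VQ-D5 and −0.53 ± 0.0958, adjusted p = 6.24e-05 in t-VK12653. Uqcrh, the hinge protein beside cytochrome c1, was higher in VQ-D4 (0.82 ± 0.18) and t-VK12653 (1.09 ± 0.17), and measured 0.38, 0.08 and −0.03 in the remaining VQ lines, where it was not called. Uqcrq, a small subunit, was the second most abundant gene of the set, with 1274 ± 118 TPM in VQ-D4, against 479 ± 81.4 TPM in Control (SD).

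Complex IV, cytochrome c oxidase, contains subunits with paired isoforms, one general and one typical of heart and skeletal muscle or of testis. The general isoforms rose in 3 to 5 lines: Cox6a1 was higher in 4 lines, Cox6b1 and Cox7a2 in all 5, and Cox8a in VQ-D1, VQ-D4 and t-VK12653. Cox6a1 CPM by replicate was 40.5, 51.9, 53.04 and 44.6 for VQ-D1, 84.6, 96.9, 95.2 and 101 for VQ-D2, 70.03, 54.8, 70.4 and 68.8 for VQ-D4, and 98.7, 111, 113 and 106 for VQ-D5. Cox6a1 in t-VK12653 was 125, 158, 176 and 228 CPM, against 35.99, 36.2 and 40.7 CPM in Control. The t-VK12653 libraries were the highest, and those of VQ-D1 lay nearest to Control and overlapped with it. Its log2 fold change was 2.11 ± 0.16, adjusted p = 4.02e-10 in t-VK12653 and 1.45 ± 0.16, adjusted p = 7.53e-08 in VQ-D5, and 0.28 ± 0.16, adjusted p = 0.138 in VQ-D1, where it was not called. Of its 50-base stretches 12.3% also occur in another annotated gene.

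Cox6a2, the heart and muscle form of the same subunit, was present in some lines and near absent in others. Cox6a2 CPM by replicate was 7.65, 5.27, 10.9 and 3.34 for VQ-D1, 0, 0, 0 and 0 for VQ-D2, 50.6, 38.2, 59.7 and 49.9 for VQ-D4, and 0, 0.230, 0 and 0.117 for VQ-D5. Cox6a2 in t-VK12653 was 46.9, 47.2, 32.6 and 7.95 CPM, against 12.6, 8.87 and 8.67 CPM in Control. All 4 libraries of VQ-D4 and 3 of 4 of t-VK12653 lay above Control, while VQ-D2 held 0 reads and VQ-D5 held 2. It rose in VQ-D4 (2.74 ± 0.55, adjusted p = 0.000705) and t-VK12653 (2.01 ± 0.50, adjusted p = 0.00324), and in VQ-D1 the fold change was −0.33 ± 0.52, adjusted p = 0.613. In VQ-D2 it was at least 77.8-fold lower than in Control, with a floor of 3 counts over the group. In VQ-D5 it was called lower, and the ratio of Control over VQ-D5 was 123 (95% counting interval 33.3 to 1030). In length-scaled terms it reached 159 ± 27.4 TPM in VQ-D4 beside 261 ± 24.98 TPM of Cox6a1 (SD). The 5 muscle genes Acta1, Ckm, Myh4, Tnnt3 and Mb summed to 0.320 to 4.33 CPM in tumour libraries and to 2.59 to 9.98 CPM in Control, with Mb at 0 in t-VK12653 and Control. Cox6a2 exons overlap those of Itgad on the other strand.

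The remaining tissue-typical isoforms were scarce. Cox6b2, the testis form of Cox6b1, held 41, 3, 82, 1 and 7 reads over the 5 lines, against 30 in Control. It was called lower in 4 lines, among them VQ-D2, VQ-D5 and t-VK12653 (−3.72 ± 0.93, adjusted p = 0.00174). The ratio of Control over VQ-D2 was 23.8 (95% counting interval 7.41 to 122) and that over VQ-D5 was 75.6 (12.6 to 3080), both from few reads. Its call in VQ-D1 (−1.77 ± 0.75, adjusted p = 0.0478) was lost without Control replicate 2, which held 19 of the 30 Control reads, at −0.81, and in most other alternatives. Cox7b2, a paralogue of Cox7b, held 9, 10, 27 and 17 reads in VQ-D1, 2 reads in VQ-D2 and 0 in every other library, Control included. In VQ-D1 it was at least 7.46-fold higher than in Control, with the same floor (adjusted p = 0.00295; DESeq2 did not call it). Cox7a1, Cox8b and Cox8c did not pass the filter, with at most 15, 11 and 1 reads in any group.

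**Figure D3:**
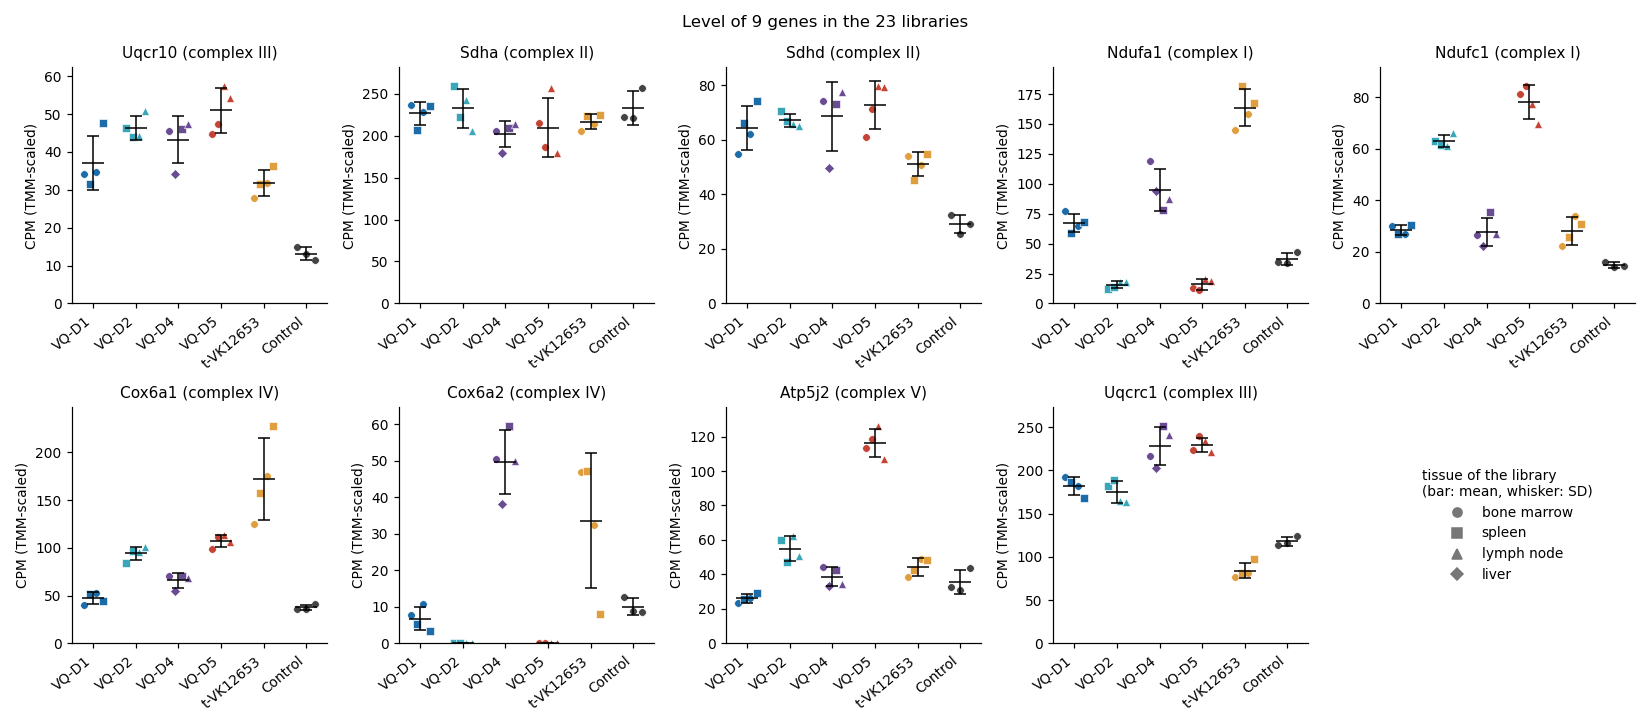
CPM (TMM-scaled) of 9 genes in each library (points, shaped by tissue), with the mean and SD of each group (bars). Uqcr10 and Sdhd lie above Control in all 20 tumour libraries and Sdha overlaps with it in 4 of 5 lines; Ndufa1 is below Control in VQ-D2 and VQ-D5, Cox6a2 is at or near 0 in the same lines, and Uqcrc1 is below Control in t-VK12653 alone among the 5 lines.

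Complex V, the ATP synthase, was highest in VQ-D5. Its summed CPM by replicate was 3349, 3458, 3644 and 3555 for VQ-D5, against 1556, 1491 and 1549.8 for Control. Of its 15 genes, 11, 10, 13, 11 and 13 were higher over the 5 lines, with 2 lower in VQ-D1 and 1 in VQ-D4. Atp5b, the catalytic beta subunit, had the highest length-scaled level of the whole set. It averaged 1088 ± 64.5, 1519 ± 27.6, 1185 ± 207, 1724 ± 81.1 and 651 ± 42.1 TPM over the 5 lines, against 595 ± 14.9 TPM in Control (SD). In CPM its log2 fold change was 1.56 ± 0.0872, adjusted p = 1.87e-12 in VQ-D5 and 0.34 ± 0.0845, adjusted p = 0.00158 in t-VK12653.

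Atp5g1, Atp5g2 and Atp5g3 encode the same mature c subunit of the rotor ring, and Atp5g3 was the most abundant of the 3 in every group. In TPM it averaged 457 ± 92.6 in VQ-D5 and 150.2 ± 15.3 in Control, with Atp5g1 at 53.8 ± 6.79 and 16.7 ± 2.98 and Atp5g2 at 10.1 ± 1.18 and 5.56 ± 2.80 (SD). Atp5g1 CPM by replicate was 13.6, 11.9, 13.7 and 14.9 for VQ-D1, 11.2, 13.6, 16.3 and 14.9 for VQ-D2, 23.8, 18.6, 19.8 and 25.3 for VQ-D4, and 17.7, 25.02, 19.9 and 18.9 for VQ-D5. Atp5g1 in t-VK12653 was 16.6, 14.9, 10.5 and 12.6 CPM, against 5.51, 7.16 and 5.25 CPM in Control. All 20 tumour libraries lay above Control. Atp5g1 was called higher in all 5 lines, by 1.26 ± 0.23 in VQ-D1 to 1.97 ± 0.23 in VQ-D4. Atp5g3 was also called in all 5, by 0.85 ± 0.15 in t-VK12653 to 1.49 ± 0.16 in VQ-D5. Atp5g2, at 0.376 to 7.43 CPM in tumour libraries, was called in VQ-D4 (2.04 ± 0.58, adjusted p = 0.00477), a call that was lost without VQ-D4 replicate 1.

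Atp5j2, subunit f of the membrane part, separated VQ-D5 from the other lines. Atp5j2 CPM by replicate was 23.2, 25.9, 26.1 and 29.4 for VQ-D1, 59.8, 47.1, 62.3 and 50.7 for VQ-D2, 44.2, 33.4, 42.5 and 34.5 for VQ-D4, and 114, 118, 126 and 107 for VQ-D5. Atp5j2 in t-VK12653 was 38.3, 42.3, 49.2 and 48.5 CPM, against 32.7, 31.04 and 43.9 CPM in Control. The VQ-D5 libraries lay above all others, and those of VQ-D1 were below all 3 of Control. It rose in VQ-D5 (1.70 ± 0.16, adjusted p = 4.22e-09) and VQ-D2 (0.59 ± 0.17, adjusted p = 0.00587) and fell in VQ-D1 (−0.48 ± 0.16, adjusted p = 0.0117). Atp5f1, subunit b of the stator stalk, was higher in all 5 lines, by 1.45 ± 0.0900, adjusted p = 8.98e-12 in VQ-D5 and 1.20 ± 0.0993, adjusted p = 1.79e-09 in VQ-D2. Its fold change was 0.23 to 0.56 in the other 3 lines. Its exons overlap those of Wdr77 on the other strand, and 23.2% of its 50-base stretches are shared with 2 other genes. Atp5k, subunit e, fell in VQ-D1 (−0.82 ± 0.20, adjusted p = 0.00149) and VQ-D4 (−0.94 ± 0.22, adjusted p = 0.00118), rose in t-VK12653 (0.54 ± 0.20, adjusted p = 0.0252) and measured 0.12 in VQ-D2 and 0.00 in VQ-D5. Atp5l, subunit g, was higher in 4 lines, but 68.5% of its 50-base stretches are shared with 13 other annotated genes, so its counts are uncertain.

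The 2 Atp5 symbols outside complex V behaved otherwise. Atp5s, known as factor B and named Dmac2l in RefSeq, was lower in VQ-D4 (−2.13 ± 0.58, adjusted p = 0.00346) and t-VK12653 (−1.17 ± 0.50, adjusted p = 0.0492) and rests on few reads, 17 in VQ-D4 and 25 in t-VK12653, against 38 in Control. The call in t-VK12653 was lost in most alternatives, among them each single t-VK12653 library left out, with −1.28 to −1.04. Atp5sl, named Dmac2 in RefSeq, was higher in t-VK12653 (0.62 ± 0.16, adjusted p = 0.00175) and was not called in the other 4 lines.

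The 4 VQ lines share a genotype, and over all 4 lines these genes were called different no more often than genes in general. Of the 77 genes, 58 (75.3%) were called for any difference among the lines, against 80.6% of all tested genes. With counts summed per recipient number 40 were called, against 66.3% of all genes in that fit. By pair, 26 of 77 (33.8%) differed in VQ-D1 against VQ-D2, where 51.3% of all genes did, and 37 (48.1%) in VQ-D1 against VQ-D4, where 41.2% did. In VQ-D1 against VQ-D5 it was 38 (49.4%, against 58.5%), and in VQ-D2 against VQ-D4 47 (61.0%, against 57.0%). In VQ-D2 against VQ-D5 it was 22 (28.6%, against 38.6%), and in VQ-D4 against VQ-D5 38 (49.4%, against 58.7%). The members called in VQ-D1 against VQ-D4 were lower in VQ-D1 in 35 of 37, and those in VQ-D2 against VQ-D4 were lower in VQ-D2 in 41 of 47. The split by direction over all genes is not given for these pairs, so these counts have no background beside them. The 4 genes with the largest F statistics were Ndufa1 (adjusted p = 1.94e-12), Atp5j2 (6.18e-11), Atp5f1 (7.68e-11) and Cox6a2 (2.9e-08).

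The proportions between the complexes also varied by line. Summed CPM of complex V over that of complex I ranged over 1.07 to 1.22 for VQ-D1, 1.41 to 1.47 for VQ-D2, 1.03 to 1.14 for VQ-D4 and 1.49 to 1.63 for VQ-D5. The range was 0.827 to 0.877 for t-VK12653, against 1.001 to 1.08 for Control. VQ-D2 and VQ-D5 lay above all other libraries and t-VK12653 below all others, in CPM and in TPM. The ratio of complex II to complex I was 0.186 to 0.196 for VQ-D1, 0.207 to 0.234 for VQ-D2, 0.160 to 0.166 for VQ-D4, 0.198 to 0.223 for VQ-D5 and 0.136 to 0.156 for t-VK12653, against 0.237 to 0.249 for Control, so that every tumour library lay below every Control library in CPM. In TPM, VQ-D2 and VQ-D5 overlapped with Control and the other 3 lines lay below it. Complex III to complex I was 0.384 to 0.408 for VQ-D4, against 0.301 to 0.335 for Control. These ratios are descriptions of sums on the CPM scale, on which longer genes count more. The sums also rest most on genes with high counts, such as Sdha in complex II and Atp5b in complex V.

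**Figure D4:**
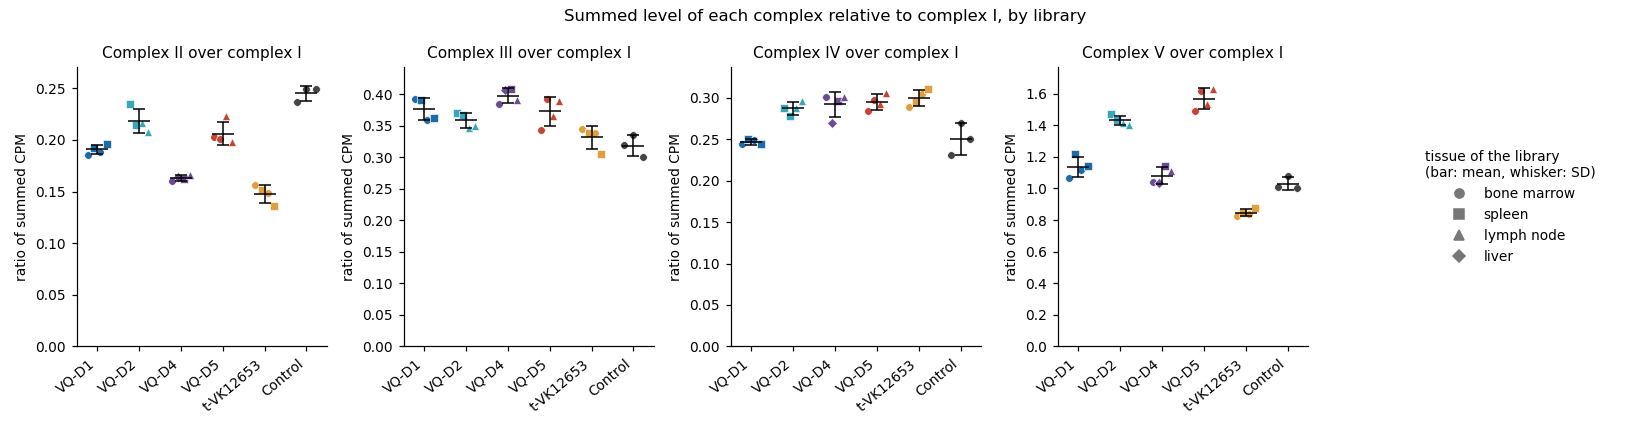
Summed CPM of complexes II, III, IV and V divided by that of complex I in each library (points, shaped by tissue), with the mean and SD of each group (bars). Complex V over complex I exceeds 1.4 in every VQ-D2 and VQ-D5 library and is below 0.9 in every t-VK12653 library; complex II over complex I is above all tumour libraries in the 3 Control libraries.

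Against t-VK12653, the VQ lines had about as many genes of the set higher as lower. With the mean of the 4 VQ lines set against t-VK12653, 25 of 77 genes were higher (32.5%, against 29.6% of all genes) and 23 lower (29.9%, against 31.6%), close to the background in both directions. The median log2 difference was 0.05. Library totals alone shifted all genes by 0.15 and gave 34 higher and 19 lower. Among called genes Uqcrc1 differed most in favour of VQ (1.30 ± 0.0734, adjusted p = 1.89e-12), followed by Atp5g2 (0.97 ± 0.40, adjusted p = 0.0434), whose call was lost in several alternatives, at 0.28 with bone marrow alone and 0.54 without t-VK12653 replicate 2. Cox6a2 and Ndufa1 differed most the other way (−5.05 ± 0.52 and −2.32 ± 0.12), followed by Ndufa3 (−1.64 ± 0.0942), an accessory subunit named here after its values were seen. The value of Cox6a2 is a fitted one that includes a line with 0 reads, and is no bound. With bone marrow libraries alone, which leaves out VQ-D2 altogether, 31 genes were called in all, against 48. With counts summed per recipient number 15 were higher and 22 lower. The shares of all genes in these alternative fits are not given, so the changes from 25 and 23 have no background beside them. The MYC-only side is 1 donor line, so the genotype and the donor cannot be told apart.

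Spleen and lymph node were each tested against bone marrow within lines, and neither left a called difference in the set. Liver, sampled in VQ-D4 replicate 2 alone, had its own term and was not tested. The fold changes of VQ-D4 against Control therefore rest on the other libraries of that line. Spleen against bone marrow had 0 of 77 genes called (edgeR; 0.0% of all genes), with 4 at an unadjusted p under 0.05, and lymph node against bone marrow had 0 of 77 (0.0155% of all genes), with 9. DESeq2 also called 0 in both. At an unadjusted p under 0.05 (edgeR), the share of the set was below that of all tested genes for spleen and above it for lymph node. These shares were not compared by a test. Atp5b had the smallest adjusted p for spleen (0.19 ± 0.0590, adjusted p = 0.482) and Atp5g3 for lymph node (0.35 ± 0.12, adjusted p = 0.516). A p over the threshold does not show that levels were equal.

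With the donor line as the unit, most genes of the set were higher in VQ. Counts summed per VQ line (4 sums) against the 3 Control libraries gave 47 of 78 genes higher (60.3%, against 13.7% of all 13870 tested genes) and 0 lower (edgeR; against 9.27%). At an unadjusted p under 0.05 were 54 of the 78, against 5316 of all 13870. DESeq2 called 45, all higher. The median log2 fold change was 0.88, against 0.19 over all genes. By complex, 20 of 35, 3 of 4, 7 of 9, 8 of 13 and 9 of 15 genes of complexes I to V were higher. The highest in each were Ndufc1 (1.85 ± 0.45, adjusted p = 0.0251), Sdhd (1.38 ± 0.18, adjusted p = 0.00476), Uqcr10 (1.90 ± 0.22, adjusted p = 0.00406), Cox6a1 (1.21 ± 0.31, adjusted p = 0.0292) and Atp5g1 (1.67 ± 0.31, adjusted p = 0.0114). The lowest were Ndufa13 (0.05 ± 0.25), Sdha (0.04 ± 0.16), Uqcrh (0.55 ± 0.19), Cox6b2 (−1.06 ± 1.36) and Atp5k (−0.05 ± 0.35), none of them called. The count of calls depended on every Control library: it was 16, 19 and 18 without Control replicates 1, 2 and 3. It was 29 without VQ-D2, 30 without VQ-D5 and 29 with bone marrow alone, which also leaves out VQ-D2. With all libraries kept it was 31 with library totals alone and 33 with RLE scaling. It was 35 with no filter and 37 with abundant non-coding RNA removed. The share of all genes called in these refits is not given, so the lower counts have no background beside them. The calls of Ndufc1 and Cox6a1 were lost without any 1 Control library, and that of Atp5g1 without Control replicate 1 or 3.

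In other mitochondrial gene lists, the counts of calls are to be read against 27.5% to 31.2% of all tested genes higher and 26.9% to 32.5% lower. Among 77 mitochondrial ribosomal protein genes, which translate the subunits encoded in mitochondria, 49, 60, 53, 64 and 46 were higher over the 5 lines, with 2, 1, 3, 1 and 3 lower. Mrpl37 had log2 fold changes of 1.47 to 2.57 in the VQ lines and 0.72 in t-VK12653. Of 25 genes of protein import into mitochondria, 16, 21, 21, 20 and 15 were higher and 1, 1, 0, 0 and 1 lower, the higher ones with Tomm70a, an outer membrane receptor, at 0.79 to 1.53. Of 10 genes of cristae and the MICOS complex, which shape the inner membrane, 6 to 8 were higher and 0 or 1 lower in each line, with Phb at 1.05 to 1.86. Of 21 tested genes of the citric acid cycle and pyruvate dehydrogenase, 12, 11, 14, 19 and 10 were higher and 3, 2, 2, 2 and 4 lower. Dlat, the acetyltransferase of pyruvate dehydrogenase, measured 0.91 to 1.55, and Pdk1, a kinase that inhibits that enzyme, was higher in the VQ lines by 1.07 to 1.90 and lower in t-VK12653 at −0.63.

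Differences between these lists were not tested. Of 38 assembly factors of the complexes, 13, 13, 11, 12 and 10 were higher and 2, 3, 2, 4 and 4 lower. Their shares higher, 26.3% to 34.2%, lay near that of all genes, while fewer were lower than among all genes. Sco2, which delivers copper to complex IV, was among the higher ones, at 1.73 to 2.39, called in all 5 lines. Of 13 tested regulators of mitochondrial biogenesis, 3, 2, 2, 4 and 3 were higher and 4, 4, 4, 4 and 3 lower. Myc is 1 of these 13 and is among the higher ones in all 5 lines, each of which carries a MYC transgene by design. In its counts transgene and own reads are not separated, and Myc was at 3.76 to 7.22 on the log2 scale. Ppargc1a, the coactivator PGC-1 alpha, was at or below 1.10 CPM in every library. Of the 10 antioxidant enzymes, 1 to 4 were higher and 2 to 4 lower in each line. Of 10 tested relatives that the symbol pattern missed, 6, 7, 8, 7 and 4 were higher and 0, 1, 0, 1 and 0 lower, and Cox4i1, the general form of the largest nuclear subunit of complex IV, rose in VQ-D2, VQ-D4 and VQ-D5 by 0.77 to 1.28 and measured −0.04 in VQ-D1 and 0.17 in t-VK12653. Of 11 tested carriers of nucleotides and protons, 7, 4, 9, 7 and 8 were higher and 1, 1, 1, 2 and 1 lower. Of 18 tested genes of mitochondrial DNA maintenance and expression 8, 11, 7, 12 and 8 were higher and 1, 1, 3, 1 and 0 lower.

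**Figure D5:**
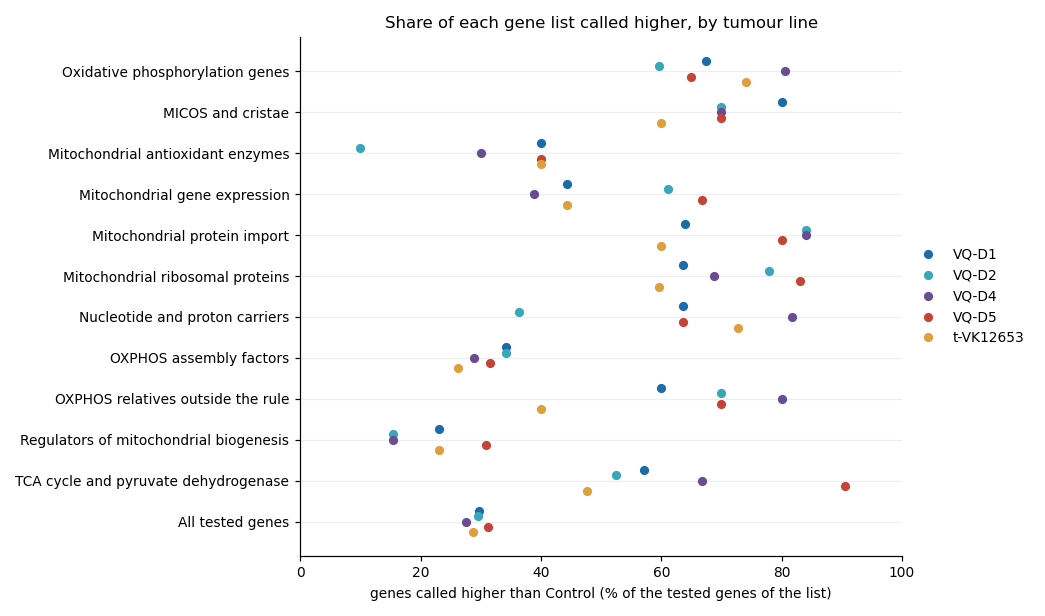
Share of the tested genes of each list (rows) called higher than Control (horizontal axis, % of the list's tested genes) in each tumour line (coloured points), with all tested genes in the lowest row. The oxidative phosphorylation genes lie between 59.7% and 80.5%, all tested genes between 27.5% and 31.2%, the assembly factors between 26.3% and 34.2%, and the regulators, Myc included, at or below 30.8%.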

How the data were processed

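Raw gene counts, TPM and FPKM were deposited by the authors as 1 table per library, per the file headers. The submitters' processing notes name STAR, featureCounts, DESeq2, GRCm38 and mm10 with no version or setting, and neither annotation nor strand setting is stated. TPM as deposited by the authors served only to compare levels between genes, and the deposited FPKM values were not used. Counts of all 24063 symbols were fitted in edgeR 4.0.16 (R 4.3.3, limma 3.58.1): TMM scaling, filterByExpr with a minimum count of 10 and a total of 15, and robust quasi-likelihood F-tests with group and tissue as terms over 23 libraries. P-values were adjusted by Benjamini-Hochberg over all genes tested, and the fold changes are log2 with their SE. VQ lines as units were tested on counts summed per line. Counting intervals and the floor of 3 counts cover counting error only. Complex sums, ratios and motif shares carry no test. Replicate numbers shared by groups come from the labels and did not pair the libraries: over 55 pairs the correlation of deviations had a median of 0.018, with 4 pairs over 0.1. Alternatives were RLE scaling, library totals, no filter, removal of abundant non-coding RNA, DESeq2 1.42.0, a replicate block, no tissue term, bone marrow alone, recipient sums and leaving out each library.

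Members and gene lists were chosen with earlier results of these data known. Named were the highest and lowest gene per complex in the line sums, the 2 highest and 2 lowest calls per line, the 4 largest F values among VQ lines, the extremes against t-VK12653 and between tissues, genes lower in 3 or more lines, isoform families, the 3 highest TPM and the genes that failed the filter. Any other gene named was chosen after its values were seen. The set's counts and sums include 1 gene that is not reported here by itself. Promoters came from RefSeq (GRCm38.p6), and shared 50-base stretches and exon overlaps from GENCODE M21. Figures were drawn in Python 3.11.15 with pandas 2.3.3 and matplotlib 3.10.9.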

Additional observations from a re-analysis of the deposited data

Results flagged for a closer look

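In VQ-D4 the liver library, replicate 2, stood apart as the lowest of its 4 libraries. Its level was 49.7 CPM for Sdhd, against 73.0 to 77.4 CPM in the other 3, 34.1 CPM for Uqcr10 (45.5 to 47.3 CPM), 54.8 CPM for Cox6a1 (68.8 to 70.4 CPM) and 72.0 CPM for Cox8a (114 to 119 CPM). Its summed level was 2284 CPM for complex I, against 2835 to 2919 CPM, and 616 CPM for complex IV, against 849 to 879 CPM. The same library held 39.9 CPM of hepatocyte genes, and their part in these values was not tested. In VQ-D2, replicate 2, a spleen library, was lowest for Cox6b1 at 54.9 CPM, against 68.5 to 69.9 CPM. There were 7 such values among 145 groups examined. Chance gives about 1 in 20, so their number is near what chance gives. The groups include complex sums as well as single genes, so they are not independent.

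Effects against Control differed in direction between VQ lines for 4 of the genes named by rule. Ndufa1 was higher than Control in VQ-D4 and lower in VQ-D2, a log2 difference of 2.69 (edgeR, adjusted p = 2.25e-11). Atp5j2 was higher in VQ-D5 and lower in VQ-D1, a difference of 2.18 (adjusted p = 2.58e-11). Ndufa13 was higher in VQ-D4 and lower in VQ-D1, a difference of 0.97 (adjusted p = 1.54e-07). Cox6a2 was higher in VQ-D4 and at 0 reads in VQ-D2, a fitted difference of 11.0 that depends on the prior count and is no bound (adjusted p = 2.02e-07). The 2 effects of each pair share the Control libraries.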

How the results depend on the processing

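Calls against Control in each line kept within 1.5 times their count in all alternatives run, with 52 to 60, 40 to 51, 57 to 66, 53 to 57 and 58 to 64 genes over the 5 lines when a library was left out. The line sums depended most on the setting. There 47 genes were called, against 31 with library totals alone, 33 with RLE scaling, 35 with no filter and 37 with abundant non-coding RNA removed. The count was 29 with bone marrow alone, 29 without VQ-D2, 30 without VQ-D5, and 16 to 19 when 1 Control library was left out. The VQ lines against t-VK12653 gave 48 calls, 31 with bone marrow alone and 37 with counts summed per recipient, and the 4 VQ lines differed in 58 genes, or 40 with counts summed per recipient. Bone marrow alone leaves out VQ-D2 as well. The cause was not tested. Apart from library totals alone, RLE scaling, no filter and removal of abundant non-coding RNA, these settings hold fewer libraries or units. Except for the 4 VQ lines, the share of all genes called in the alternatives above is not given. Complex II in t-VK12653 over Control turned from above to below 1, at 0.904 in TPM and 0.923 with CPM of library totals. The replicate block gave 56, 46, 63, 56 and 61 calls over the 5 lines, and is a fit of numbers that did not pair the libraries. Of the values for single genes and complex sums, 594 kept their direction and side of the threshold, 48 lost the call, 1 gained it, 26 moved by more than the replicate spread and 2 turned round. The lost calls were in Atp5s, Atp5g1, Atp5g2, Cox6a1, Cox6b2, Cox7b2 and Ndufc1. Genes with few reads, such as Cox6b2 and Atp5s, are limited by depth.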
